A study of Mus musculus with 8 samples.

Results

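Circular RNAs that gave a bright signal in the mouse dorsal striatum, and whose mean signal was close between cocaine-administrated and saline-treated mice, are described here. They were chosen by their measured values: a mean log2 intensity of 10 or more on the saline arrays, a cocaine mean within 0.3 of the saline mean on the log2 scale, and an SD under 0.6 within each group. Of the 795 circRNAs measured, each by one array probe, 64 met these limits (8.05%), and 162 met the limit on brightness alone. The group difference and the spread within groups thus chose these circRNAs, and both are given below as a description, with no test of the selection.

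A circRNA is made by back-splicing, in which the end of an exon is joined to the start of an exon that lies upstream, so that the RNA forms a closed loop. The loop has no free ends, it resists exonucleases such as RNase R, and it often outlives the linear RNA of the same gene. Circles are plentiful in brain, where many come from genes of synaptic proteins. The dorsal striatum is a target of midbrain dopamine neurons and takes part in the learning of actions and habits, and cocaine raises dopamine there by blocking its reuptake.

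The cocaine group held 4 arrays from male C57BL/6J mice, given as 8 weeks old, that worked for intravenous cocaine at 0.75 mg/kg per infusion. The saline group held 4 arrays from mice of the same strain, sex and age that worked for saline. In the study's procedure every mouse of both groups carried a jugular catheter and obtained infusions by nose pokes, so surgery and the training procedure were shared. The paper reports many more infusions a day in the cocaine group, each paired with a cue light, so responding and cue exposure were not matched. The labels number 4 replicates in each group and the figure legends also count 4 per group, while the series description gives 3 mice. No label ties each array to a mouse of its own, and p-values and intervals measure the spread between these arrays, which may be technical in part. The probes carry no circRNA name, host gene, position or sequence in the files used here. The circRNAs are therefore given by probe ID, no striatal marker could be checked and no sequence is shown. A probe's brightness depends on how well it hybridizes as well as on the amount of its circRNA, so "bright" describes the probe, and no probe is ranked against another as more or less abundant.

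Bright circRNAs with close group means spanned the upper part of the intensity scale. Their saline means ran from 10.07 to 15.99 with a median of 12.57, against a median of 7.83 over all 795 circRNAs. There were 14 between 10 and 11, 10 between 11 and 12, 17 between 12 and 13, 10 between 13 and 14, 6 between 14 and 15, and 7 above 15. The cocaine mean was the higher one for 35 and the lower one for 29. The median difference, cocaine minus saline, was 0.06 on the log2 scale, with a range from -0.28 to 0.30. Over all 795 circRNAs the median difference was -0.14, and over the 98 other bright circRNAs it was -0.36.

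At the top of the scale, 4 probes sat at or close to the highest value of every array, where the scanner can register no further increase. The highest value lay between 15.958 and 15.998 on each array, next to the limit of 16 that the scanner allows on this scale. ASCRMP000083 read 15.958, 15.982, 15.958 and 15.980 on cocaine arrays 1 to 4, and the saline arrays, in the same order, read 15.998, 15.998, 15.980 and 15.998. ASCRMP001051 read 15.958, 15.982, 15.958 and 15.980 on the cocaine arrays and 15.998, 15.993, 15.980 and 15.998 on the saline arrays. ASCRMP000703 read 15.96, 15.96, 15.96 and 15.98 with cocaine and 15.96, 15.95, 15.98 and 15.96 with saline. On the cocaine arrays the first 2 of these probes read alike, and both equalled the highest value of the array. ASCRMP001244 lay a little lower on some arrays, at 15.96, 15.98, 15.85 and 15.98 with cocaine and 15.94, 15.93, 15.98 and 15.93 with saline. ASCRMP000703 and ASCRMP001244 were below the top on some arrays, as ASCRMP001244 was on cocaine array 3, at 15.85 against 15.958. All 4 probes lay close to the top of every array, so no fold and no interval is given. The arrays do not show whether their circRNAs changed. The 3 smallest SDs among the 64, all about 0.01 in each group, also belonged to ASCRMP001051, ASCRMP000083 and ASCRMP000703.

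A further 2 probes came within 0.5 of the array maximum on some arrays. ASCRMP000278 did so on 5 arrays and read 15.51, 15.63, 15.19 and 15.40 with cocaine and 15.30, 15.58, 15.67 and 15.69 with saline. ASCRMP001458 did so on 2 arrays, with 15.47, 15.31, 15.43 and 15.11 with cocaine and 15.51, 15.16, 15.33 and 15.11 with saline. In both the groups overlapped. Brightness near the limit did not always go with a small difference. In all, 8 probes on the array came within 0.5 of the maximum at least once. Among these, ASCRMP000231 had a cocaine mean 0.43 above saline and ASCRMP000141 a cocaine mean 0.34 below it, and neither met the limits. ASCRMP000231 read 15.958 on cocaine array 1, the highest value of that array, so its difference may be cut short. The remaining 58 bright circRNAs with close means stayed clear of the maximum on all arrays.

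The brightest of these 58 was ASCRMP000328, which read 15.23, 15.20, 15.18 and 15.26 on the cocaine arrays and 15.04, 15.24, 15.27 and 15.22 on the saline arrays. Saline array 1 was the lowest reading and the other 7 lay within a narrow band. The difference was 0.02 on the log2 scale, with a 95% interval from -0.24 to 0.28 from limma. ASCRMP001633 read 14.53, 14.76, 15.36 and 15.20 with cocaine and 14.79, 14.97, 14.76 and 14.81 with saline. Its saline arrays all lay below cocaine arrays 3 and 4 and above cocaine array 1, so that a wide cocaine group (SD 0.38) and a narrow saline group (SD 0.09) shared nearly the same mean. ASCRMP001785 read 14.80, 14.50, 14.78 and 14.57 with cocaine and 14.83, 14.55, 14.82 and 14.54 with saline. Arrays 1 and 3 were high and arrays 2 and 4 low in both groups, and the difference was -0.02, with an interval from -0.34 to 0.30.

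The steadiest probes away from the maximum, picked after their values were seen, were ASCRMP001772, ASCRMP000328 and ASCRMP001637. ASCRMP001637 read 11.52, 11.64, 11.63 and 11.74 with cocaine and 11.61, 11.57, 11.53 and 11.45 with saline. The groups overlapped, the difference was 0.09, and the interval ran from -0.17 to 0.35. ASCRMP001772 read 14.33, 14.41, 14.36 and 14.48 with cocaine and 14.66, 14.72, 14.67 and 14.66 with saline. Every cocaine array lay below every saline array, by a difference of -0.28 with an interval from -0.53 to -0.04, so this circRNA met the limits with a small gap between the groups that exceeded the spread within them. Its adjusted p was 0.0717 from limma over all circRNAs.

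Small gaps without overlap were seen in 4 of the 64, or 6.25%, where 37.6% of all circRNAs measured had groups without overlap. The 3 others were higher with cocaine. ASCRMP000693 read 14.65, 14.46, 14.50 and 14.54 with cocaine and 14.32, 14.03, 14.40 and 14.22 with saline, an increase of 0.29 between the means. ASCRMP001079 read 11.26, 11.36, 11.09 and 11.31 with cocaine and 10.91, 10.90, 10.9997 and 11.08 with saline, an increase of 0.28. ASCRMP000519 read 14.35, 14.64, 14.22 and 14.23 with cocaine and 13.95, 14.15, 14.18 and 14.12 with saline, an increase of 0.26. In each the nearest cocaine and saline arrays almost touched. The adjusted p from limma was 0.109, 0.102 and 0.181 in this order.

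None of the 64 had an adjusted p under 0.05 from limma, the p-values being adjusted by Benjamini-Hochberg over the whole table. Over all 795 circRNAs, 35.5% passed this threshold, 6.92% higher and 28.6% lower with cocaine. The limit on the difference was part of the choice, so nothing is read from this gap. At an unadjusted p under 0.05 from limma there were 3, namely ASCRMP000693, ASCRMP001079 and ASCRMP001772, and the equal-variance t-test that the methods name gave 9. After adjustment this t-test kept ASCRMP001772 (adjusted p = 0.00309, methods' t-test) and ASCRMP001079 (adjusted p = 0.0319, methods' t-test). ASCRMP001772 also passed with limma when the prior followed intensity and was robust (adjusted p = 0.0175) and when only circRNAs with a mean of 8 or more were tested (adjusted p = 0.0436).

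A difference that misses a threshold can still be sizeable, so the 95% intervals of the differences from limma were compared with fixed sizes of change. They treat the circRNAs as if they had not been chosen for a small difference. The interval lay within a 1.5-fold change in either direction, 0.58 on the log2 scale, for 35 of the 64, and for 29 of the 58 that stayed clear of the array maximum. It lay within a 2-fold change for all but ASCRMP000817, whose upper bound was 1.001. Over the 64, the half-width of the interval ranged from 0.24 to 0.76 with a median of 0.35. These values include the probes at the top of the arrays, and over the 58 clear of it the median was 0.39. For the 29 others a change of 1.5-fold or more thus stayed inside the interval, although their means were close. Without saline array 3 the limits and intervals computed anew gave 21 within 1.5-fold.

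The widest spreads showed what a close mean can hide. ASCRMP000817, with the largest saline SD, read 10.05, 9.93, 11.10 and 10.62 with cocaine and 10.93, 9.99, 10.02 and 9.78 with saline. Cocaine arrays 3 and 4 and saline array 1 were high, and the rest were low. ASCRMP001501, with the largest cocaine SD, read 10.61, 10.48, 11.09 and 11.74 with cocaine and 10.55, 11.14, 10.92 and 10.75 with saline. Its group difference of 0.14 was smaller than the SD of 0.57 within the cocaine group. ASCRMP000569 read 12.17, 12.83, 11.51 and 12.00 with cocaine and 11.89, 12.56, 12.33 and 12.86 with saline, and its groups overlapped widely around a difference of -0.28. ASCRMP000315 read 10.33, 9.98, 10.96 and 10.39 with cocaine and 10.84, 10.05, 10.92 and 10.22 with saline, with saline arrays 1 and 3 above saline arrays 2 and 4. Both groups of ASCRMP000315 had an SD above 0.4, and their means differed by -0.09.

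In 46 of the 64 (71.9%) the SD was larger in the cocaine group than in the saline group. This share was 79.6% over all circRNAs. The median SD among the 64 was 0.24 with cocaine and 0.16 with saline, and 0.38 and 0.20 over all circRNAs. Of the 76 bright circRNAs with a difference under 0.3, 12 were left out for their SD, in all 12 because the cocaine SD reached 0.6, and in 1 of them because the saline SD reached it too. ASCRMP001105 was one of the 12, with means of 13.03 and 12.97 and SDs of 1.49 with cocaine and 0.47 with saline. With an SD limit of 0.4 in place of 0.6, 42 circRNAs met all limits, and with no limit on the SD, 76.

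Within the cocaine group the readings fell into pairs of arrays. Deviations from the group mean, taken across the 64 circRNAs, had a Pearson correlation of 0.58 between cocaine arrays 1 and 2 and of 0.50 between cocaine arrays 3 and 4, whereas every other pair lay between -0.84 and -0.72. The circRNAs are not independent replicates, and deviations from a mean of 4 arrays must sum to 0, which pulls such correlations below 0. Cocaine arrays 1 and 2 both exceeded arrays 3 and 4 in 24 circRNAs (37.5%), and the reverse held in 21 (32.8%). Over all 795 circRNAs these shares were 40.1% and 24.9%. The bright circRNAs with close means thus carried, in 45 of 64 cases, the same division of the cocaine arrays that was seen across the whole table. A pair of circRNAs picked after their values were seen show its 2 directions. ASCRMP000259 read 13.01, 13.22, 12.14 and 12.27 with cocaine and 12.49, 12.66, 12.73 and 12.93 with saline, so that all saline arrays fell in the gap between the pairs of cocaine arrays. ASCRMP001332 read 10.93, 10.72, 11.84 and 11.59 with cocaine and 11.28, 11.12, 11.04 and 11.11 with saline, with the pairs in the opposite order. Means that differed by -0.04 and 0.13 therefore came from cocaine arrays on either side of the saline arrays.

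The saline arrays fell into other pairs. The correlation of deviations was 0.32 between saline arrays 1 and 3 and 0.48 between saline arrays 2 and 4, with every other pair between -0.91 and -0.38. Saline arrays 1 and 3 both exceeded arrays 2 and 4 in 27 of the 64 (42.2%), against 30.6% over all circRNAs, and the reverse held in 12 (18.8%), against 30.2%. In 5 of the 64, ASCRMP001785, ASCRMP001458, ASCRMP000906, ASCRMP001700 and ASCRMP000164, arrays 1 and 3 exceeded arrays 2 and 4 in both groups (7.81%, against 5.16% over all circRNAs). The opposite order in both groups was seen in 0 of the 64 and in 8.30% of all circRNAs. Arrays also matched across the groups, but not by number. Across all 795 circRNAs the deviations correlated at 0.58 between cocaine array 1 and saline array 3, 0.57 between cocaine array 2 and saline array 4, 0.47 between cocaine array 3 and saline array 1, and 0.43 between cocaine array 4 and saline array 2. Across the 64 these correlations were 0.36, 0.73, 0.58 and 0.12 in the same order. Over the whole table each cocaine array thus correlated most with one saline array of another number. Over the 64, however, cocaine array 4 correlated more with saline array 1, at 0.29. Negative correlations of like size were also present over all circRNAs. They were -0.56 between cocaine array 2 and saline array 1, and -0.44 between cocaine array 4 and saline array 3. Deviations sum to 0 in each group, so correlations of both signs must appear, and the matches are in part forced. The tests and intervals treat the arrays as independent and make no allowance for the matches across groups. These matches were noticed in the data and are given by no label. The labels used here give no slide, scan or labeling batch, and the part of these in the pairs and matches was not tested.

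The level of whole arrays differed little over these circRNAs. The median deviation from each circRNA's mean over 8 arrays was between 0.00 and 0.04 on the 4 cocaine arrays, whereas saline arrays 1 to 4 stood at 0.02, -0.07, 0.01 and -0.08. Over the other 98 bright circRNAs the same median was -0.30 to -0.04 on the cocaine arrays and 0.10 to 0.24 on the saline arrays. Over all circRNAs it was -0.21 to -0.06 and 0.08 to 0.12. The difference of the means was among the values that chose the 64, so their flat profile is part of that choice.

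Arrays left out of the choice gave a view that was separate only in part. The limits were applied without 1 array at a time, which yielded 53 to 65 circRNAs, and the array left out was then set against the mean of the saline arrays that had been used. On cocaine arrays 1 to 4 the median difference over the circRNAs so chosen was 0.07, 0.10, 0.07 and 0.01. These medians lay close to 0 on every cocaine array. The share within 1.5-fold of the saline mean was 85.9%, 75.4%, 81.0% and 88.7% on cocaine arrays 1 to 4. Over the other bright circRNAs it was 30.6%, 33.0%, 57.7% and 67.9%, with medians of -0.53, -0.41, -0.17 and -0.20. A saline array left out in the same way stood at a median between -0.05 and 0.03. Within 1.5-fold lay 95% to 100% of the chosen circRNAs and 85.4% to 92.9% of the other bright circRNAs. Within 0.3, the limit of the choice, lay 62.5%, 44.6%, 53.4% and 62.3% of the chosen circRNAs on left-out cocaine arrays 1 to 4. For the other bright circRNAs these shares were 15.3%, 13.4%, 34.6% and 34.9%. On left-out saline arrays the share within 0.3 was 68.3% to 93.2% for the chosen and 61.2% to 71.4% for the other bright circRNAs. Every chosen set held the 6 probes near the array maximum. The circRNAs chosen without a cocaine array were thus spread more widely on it than those chosen without a saline array were on theirs. The saline mean is that of the other group for a cocaine array and of the same group for a saline array. The spreads on left-out cocaine and saline arrays are therefore not like for like. On all 4 cocaine arrays the chosen circRNAs lay closer to the saline mean than other bright circRNAs. The choice fixed part of this contrast, because it used the same saline mean and cocaine arrays that deviated together in pairs. Nothing is read from it. All but 5 of the readings on left-out cocaine arrays lay within 2-fold, 4 on array 2 and 1 on array 3. The other bright circRNAs were those that missed a limit on the arrays used. Each value is that of a single array with no test, and the arrays had been normalized together by the authors before any was left out.

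Among circRNAs under the limit on brightness, 138 of 633 (21.8%) had a difference under 0.3 and an SD under 0.6 in each group. Of the 162 bright ones, 64 (39.5%) did. These 64 include the 6 with values near the array maximum, where saturation can hide a change. The bright and dimmer shares are therefore not fully alike. Of the bright circRNAs, 34 were at least 0.3 higher and 52 at least 0.3 lower with cocaine. The limit on the SD alone was met by 83.3% of the bright and 73.9% of the dimmer circRNAs.

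The 64 depended on the scale of the arrays to a degree. As deposited, the table had a median difference of -0.14 over its circRNAs, which became -0.07 when arrays were median-centred, 0.00 when they were quantile-normalized again and 0.05 with cyclic loess. Relative to the median of all circRNAs, the 64 thus stood 0.20 higher in the deposited values. Over the same 64, the median difference was 0.06, 0.12, 0.11 and 0.11 under these scalings, and 35, 49, 43 and 48 of them were higher with cocaine. Applied anew, the limits were met by 49, 57 and 57 circRNAs under the 3 other scalings, of which 44, 53 and 54 were among the 64. In all, 42 of the 64 met the limits under all 3 other scalings, 40 with each array left out in turn, and 35 in all 11 of these settings. Of the 35, 29 stayed clear of the array maximum and 23 of these also had an interval within 1.5-fold. ASCRMP000328, ASCRMP001785 and ASCRMP001637 were among the 23, and their largest difference under any scaling was 0.09, 0.05 and 0.18.

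The limits cut through a continuous range of values. On brightness, the dimmest circRNA inside was ASCRMP000515, with a saline mean of 10.07, and the nearest outside was ASCRMP001317, with 9.84. On the difference, ASCRMP000572 was just inside at 0.30 (0.295) and ASCRMP001628 just outside at 0.33, and on the other side ASCRMP001772 was inside at -0.28 and ASCRMP001577 outside at -0.33. On the cocaine SD, ASCRMP001501 was inside at 0.57 and ASCRMP000527 outside at 0.61. On the saline SD, ASCRMP000817 was inside at 0.51, and no circRNA that met the other limits lay outside.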

How the data were processed

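Circular RNA was measured in the dorsal striatum on 4 cocaine and 4 saline one-colour Cy3 arrays. After digestion of linear RNA with RNase R, the authors amplified and labeled the RNA, read the scanned arrays with GenePix Pro 6.0, normalized them by quantiles in R, kept circRNAs above 2 times background and deposited the values as log2 intensity. How background was corrected and replicate spots were combined is not given in the sources used here. Quantile normalization and the filter can hide a change shared by most circRNAs. Each column was matched to its sample label, and 0 were left over. A deposited sheet with a title only was not used.

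All 795 circRNAs were fitted with limma 3.58.1 in R 4.3.3 (2 groups, no block, two-sided, Benjamini-Hochberg adjustment, threshold 0.05), and the 95% interval used the moderated variance. The computation was tested on simulated data with independent arrays. It therefore does not test how intervals and calls behave with the matches between arrays seen here. The number of arrays limits the precision. Values within 0.5 of an array's maximum were marked as near it. The circRNAs and the limits were chosen with earlier results of these data known. Probes were named by fixed rules: the 3 brightest, the 3 brightest clear of the maximum, the 3 with the smallest SD, those next to each limit, those with an adjusted p under 0.05 (at most 2 a direction), and the 2 with the largest SD in each group. Other named probes are members in small counts or were picked after their values were seen. Alternatives were 3 scalings, other limits, each array left out, the replicate number as a block, other priors, a filter on dim circRNAs and the methods' t-test.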

Additional observations from a re-analysis of the deposited data

Results flagged for a closer look

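Among the 64 circRNAs, each tested in both groups, 4 readings stood apart from the other 3 of their group by a gap that Dixon's criterion marks. Chance marks about 1 group in 20. ASCRMP000083 read 15.980 on saline array 3, where the other saline arrays read 15.998, and ASCRMP000703 read 15.98 on cocaine array 4, where the others read 15.96. Both readings equal the highest value of their array, and the gaps are 0.02 on the log2 scale. ASCRMP000224 read 13.32 on cocaine array 4, where the other cocaine arrays read 13.78 to 13.81. ASCRMP001089 read 12.66 on saline array 3, where the other saline arrays read 12.74 to 12.76. The 4 readings fell in 2 cocaine groups and 2 saline groups (3.12% each), against 4.03% and 2.64% over all circRNAs.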

How the results depend on the processing

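The number of bright circRNAs with close means, 64, was 42 with an SD limit of 0.4, and it lay between 43 and 81 under the other limits and scalings tried and between 53 and 65 with one array left out. The median difference, 0.06 over the 64, was 0.08 over the 58 clear of the maximum. Over circRNAs chosen anew it lay between 0.00 and 0.05 with one array left out and between 0.04 and 0.06 under the other scalings. The limit on the difference keeps such medians small. Over the same 64 it was 0.12 with median-centred arrays, 0.11 with a second quantile normalization and 0.11 with cyclic loess. None of the 64 passed an adjusted p under 0.05 from limma, also with the replicate block. Of the circRNAs chosen with one array left out, none passed either (0 to 0). Of the 64, 1 passed with a trend and a robust prior, 1 with only circRNAs of a mean of 8 or more tested, and 2 with the methods' t-test. The count of intervals within 1.5-fold, 35, lay between 21 and 32 with one array left out, with 21 without saline array 3. It was 26 with the replicate block. Same-numbered arrays of the 2 groups did not deviate together over all circRNAs (Pearson correlation -0.26 to -0.00), so the number was not taken to pair them, although each cocaine array correlated at 0.43 to 0.58 with a saline array of another number, and the block moved the calls over all circRNAs from 282 to 234. Near the maximum were 6 circRNAs, 4 within 0.25 and 8 within 1. Settings without the circRNAs near the maximum were added after the data were seen. Readings at the top of the scanner limit what the arrays can show for 4 circRNAs, and the spread between arrays limits the rest.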

Other observations

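Probe IDs next to each other held several bright circRNAs with close means, a pattern noticed after the values were seen. Of the 7 measured probes from ASCRMP000569 to ASCRMP000576, 5 were bright and all 5 met the limits. Over all 795 circRNAs 20.4% were bright, and 39.5% of the bright ones met the limits. The ends of this range of IDs were also set after the values were seen, so nothing is read from the count. Their differences were -0.28 for ASCRMP000569, 0.07 for ASCRMP000571, 0.30 (0.295) for ASCRMP000572, 0.22 for ASCRMP000575 and -0.03 for ASCRMP000576. In ASCRMP000569, ASCRMP000571, ASCRMP000572 and ASCRMP000576, cocaine arrays 1 and 2 both exceeded arrays 3 and 4, an order seen in 40.1% of all circRNAs. ASCRMP000571, for example, read 11.35, 11.30, 10.79 and 11.07 on cocaine arrays 1 to 4. Only ASCRMP000575 had the opposite order, at 10.04, 10.19, 10.81 and 11.05. The order of the IDs is not explained in the sources used here, and whether these probes share a host gene was not tested.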
